A study of Homo sapiens with 9 samples.

Results

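YAP1, WWTR1, TEAD1, CTGF, CYR61, ANKRD1, AMOTL2 and LATS2 were followed across 786-O cells depleted of ARNT or BMAL1. These 8 genes were taken by name from a table of 38021 genes, and all 8 were found and tested. The established human line 786-O derives from clear cell kidney cancer, and it has no working VHL, so that HIF2α is stable. ARNT is the partner of the HIF α subunits, and BMAL1 is the partner of CLOCK in the circadian clock. The cells carried a lentiviral control shRNA (shControl, genotype WT), an shRNA against ARNT (shARNT) or an shRNA against BMAL1 (shBMAL1), and all lines were selected for 1 week in 2.5 µg/mL puromycin and kept in 1.25 µg/mL. Each group had 3 stranded mRNA libraries, 9 in all, labelled as biological replicates, and p values measure the spread between these libraries. The labels name 1 shRNA per target, so an effect of the hairpin sequence and an effect of losing the target cannot be told apart.

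YAP (YAP1) and TAZ (WWTR1) are paralogous transcriptional coactivators that do not bind DNA themselves. They reach DNA through TEAD factors such as TEAD1, which recognise the letters GGAATG. The Hippo kinase LATS2 and its relative LATS1 phosphorylate YAP and TAZ, which holds them out of the nucleus, and angiomotin proteins such as AMOTL2 bind YAP in the cytoplasm and at junctions. CTGF (also named CCN2) and CYR61 (CCN1) encode secreted matricellular proteins, and ANKRD1 encodes an ankyrin repeat protein, and all 3 are widely used as readouts of YAP and TEAD. AMOTL2 and LATS2 are targets as well as inhibitors, which gives the pathway negative feedback.

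The promoter stretches that hold the TEAD letters are shown because TEAD factors are the route of YAP and TAZ to these genes. RefSeq windows on GRCh38.p14 were held for 6 of the 8 genes, and none was held for CYR61 or TEAD1. In the 250 bases before the annotated start, GGAATG or its reverse complement CATTCC occurred in 11.9% of 35116 windows over all genes. The CTGF window held it 3 times, beginning 169, 104 and 95 bases before the start, and 0.0826% of windows held it 3 times or more. The ANKRD1 window held it 2 times, 220 and 128 bases before the start, and 0.94% of windows held it at least 2 times. YAP1 held it 1 time and AMOTL2 held it 1 time in the second of its 2 windows. Neither of the 2 WWTR1 windows held it. LATS2 held none wholly inside the window, and 1 when the 50 bases after the start were included. The stretches are given 5′ to 3′ on the gene's strand, with the TEAD letters of either strand and the E-box CACGTG in capitals.
CTGF, chr6:131951447-131951556, minus strand: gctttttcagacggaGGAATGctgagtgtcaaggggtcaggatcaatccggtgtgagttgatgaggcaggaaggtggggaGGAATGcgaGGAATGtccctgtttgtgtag
ANKRD1, chr10:90921195-90921322, minus strand: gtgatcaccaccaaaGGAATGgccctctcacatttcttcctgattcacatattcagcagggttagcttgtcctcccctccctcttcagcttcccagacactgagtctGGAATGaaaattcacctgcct
AMOTL2, chr3:134374481-134374546, minus strand: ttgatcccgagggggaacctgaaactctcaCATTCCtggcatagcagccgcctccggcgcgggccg
YAP1, chr11:102110229-102110305, plus strand: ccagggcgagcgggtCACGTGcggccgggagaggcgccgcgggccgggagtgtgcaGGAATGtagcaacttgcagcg

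The E-box CACGTG, the letters that BMAL1 with CLOCK recognises, and ACGTG, the core letters of a HIF site, were searched on both strands of the same windows. CACGTG was present in 6.34% of all windows and ACGTG in 18.5%. The YAP1 window held 1 E-box, beginning 203 bases before the start, and its 2 ACGTG matches were the 2 strands of that E-box. In LATS2 an E-box ran across the start itself. Only its reverse-strand ACGTG match, which reads CACGT on the gene's strand and begins 5 bases before the start, lay inside the window. The windows of CTGF, ANKRD1, AMOTL2 and WWTR1 held neither. A match describes the letters only and is not a binding site.

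Libraries held between 33793067 and 35444757 reads. ARNT was lowest in the shARNT libraries, at 1225 normalised read counts (counts divided by each library's size factor) against 2352 in shControl, and BMAL1 (ARNTL in the table) was lowest in the shBMAL1 libraries, at 326 against 761. Each target was also lower under the other knockdown, with ARNT at 2014 counts under shBMAL1 (log2 fold change -0.23, DESeq2 adjusted p 0.0187) and ARNTL at 633 under shARNT (-0.26, DESeq2 adjusted p 0.0293). The first call was lost without control replicate 2 (DESeq2 adjusted p 0.162) or shBMAL1 replicate 2 (0.109), and the second without control replicate 2 (0.15) or shARNT replicate 3 (0.214). All 9 renal carcinoma markers examined, among them PAX8 and EPAS1, were expressed. Leukocyte markers summed to 7.04 to 14.7 counts per library and endothelial markers to 2.01 to 8.95, with CD3E and CDH5 at 0 throughout. Fibroblast markers summed to 232 to 289 counts per shControl library, 199 to 208 per shARNT library and 334 to 399 per shBMAL1 library, with none of the 4 markers at 0 throughout. On average COL1A1 stood at 149, 112 and 142 counts in these groups, LUM at 90.9, 75.4 and 188 and PDGFRB at 21.8, 14.8 and 24.2, and DCN was at 0 to 3.02 counts per library. The share of mitochondrial reads was 5.46 to 7.14% in shControl, 7.59 to 8.74% in shARNT and 8.71 to 9.66% in shBMAL1. The part of these shifts in the results that follow was not tested. In bulk RNA, fewer cells of a type and less RNA per cell cannot be told apart.

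Under shBMAL1, 5 of the 8 genes rose and none fell, and CYR61 rose most. Under shARNT, YAP1 alone was called. The coactivator TAZ (WWTR1), TEAD1 and LATS2 were called in neither knockdown. In the direct comparison of shBMAL1 with shARNT, CYR61 and AMOTL2 were higher in shBMAL1, and no other member was called. A gene was called at a DESeq2 adjusted p under 0.1, the threshold of the study. Among all genes tested, 35.4% were called under shARNT (16.5% higher and 19.0% lower) and 36.8% under shBMAL1 (17.4% higher and 19.4% lower). In the direct comparison 36.3% were called, 17.8% higher and 18.6% lower in shBMAL1. Under shARNT 3 of the 8 genes had every knockdown library above every control library, and under shBMAL1 4 did, whereas groups did not overlap in either direction for 43.9% and 45.1% of all genes. In the direct comparison 4 members were entirely above and 1 entirely below, beside 44.6% of all genes in either direction. The 3 control libraries serve in both knockdown comparisons, so their 2 sets of values are not independent. The median log2 fold change of the 8 genes was 0.09 under shARNT and 0.28 under shBMAL1, beside 0.003 and 0.02 over all genes tested, and the direct comparison gave 0.17 beside 0.01.

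**Figure D1:**
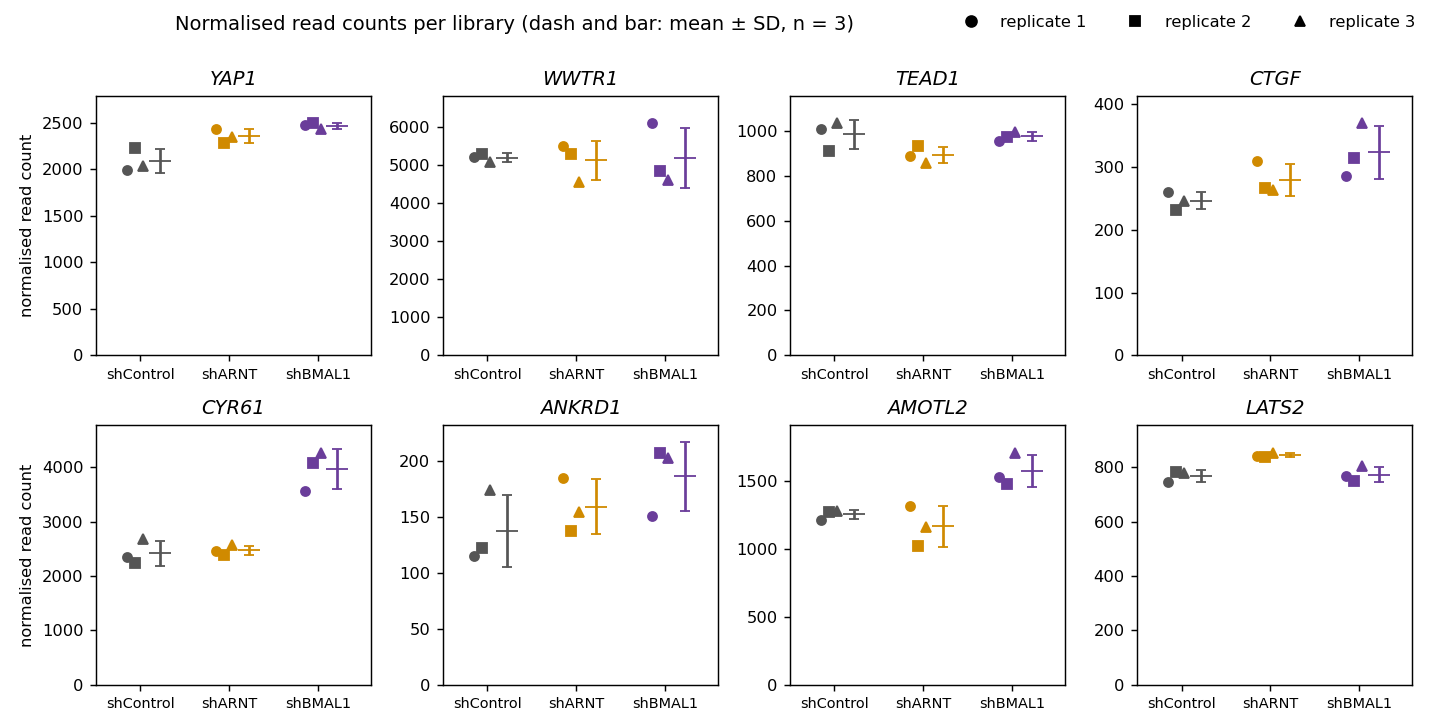
Normalised read counts (vertical axis, from 0) of the 8 genes in each of the 9 libraries by group, with the replicate number shown by the symbol and mean ± SD (n = 3) as a dash and bar. The 3 shBMAL1 libraries of CYR61 lie between 3562 and 4268, above every other library, while the WWTR1 groups overlap.

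The coactivators and their DNA-binding partner come first. YAP1 (chromosome 11, 101981178 to 102104155 on GRCh37, plus strand) had 1995, 2231 and 2038 normalised read counts in shControl, 2429.9, 2280.4 and 2348 in shARNT, and 2476, 2492 and 2431 in shBMAL1. Every knockdown library was above every control library. The shBMAL1 libraries were also above the shARNT libraries, though the closest pair stood at 2431 and 2429.9 counts. Complete separation in this direction was seen for 20.9% of all genes tested under shARNT and for 22.3% under shBMAL1. For shBMAL1 against shARNT it was seen for 22.5%. The log2 fold change of YAP1 was 0.18 under shARNT (SE 0.07, DESeq2 adjusted p 0.033), a 1.13-fold rise. Under shBMAL1 it was 0.24 (SE 0.07, DESeq2 adjusted p 0.00601), a 1.18-fold rise. A difference in YAP1 between the knockdowns was not shown, with a direct log2 difference of 0.07 and a 95% interval from -0.07 to 0.20 (DESeq2 adjusted p 0.518). The call under shARNT was lost without control replicate 1 (0.14, DESeq2 adjusted p 0.192), without control replicate 3 (0.131) and without shARNT replicate 1 (0.155).

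WWTR1, which encodes TAZ (chromosome 3, 149235022 to 149454501, minus strand), had 5219, 5299 and 5071 counts in shControl. It had 5509.7, 5300.4 and 4552 in shARNT and 6092, 4843 and 4611 in shBMAL1. The groups overlapped fully, and the spread was wider in the knockdowns, where the SD was 503 counts (shARNT) and 797 counts (shBMAL1), against 116 in shControl. The log2 fold change was -0.02 under shARNT (95% interval -0.15 to 0.11, DESeq2 adjusted p 0.888) and -0.01 under shBMAL1 (-0.18 to 0.17, DESeq2 adjusted p 0.973). One library decided the second value, since without shBMAL1 replicate 1 it was -0.14 with a DESeq2 adjusted p of 0.0871. WWTR1 shares 756 exonic bases with the antisense gene WWTR1-AS1, which had 7.94 to 25 counts per library in the same table.

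TEAD1 (chromosome 11, 12695968 to 12966284, plus strand) had 1007, 912 and 1033 counts in shControl, 889, 931 and 857 in shARNT, and 954, 973 and 997 in shBMAL1. The shARNT libraries were the lowest as a group and overlapped the control libraries through control replicate 2. Its log2 fold change was -0.14 under shARNT (95% interval -0.31 to 0.03, DESeq2 adjusted p 0.235) and -0.02 under shBMAL1 (-0.19 to 0.16, DESeq2 adjusted p 0.928). A fall of TEAD1 under shBMAL1 larger than 0.19 on the log2 scale was thus outside the interval. All 3 shBMAL1 libraries were above all 3 shARNT libraries, as for 22.5% of genes tested, and the direct difference of 0.13 was not called (DESeq2 adjusted p 0.305).

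The secreted and nuclear readouts follow. CYR61 (chromosome 1, 86046444 to 86050272, plus strand) had 2346, 2239 and 2679 counts in shControl, 2453, 2395 and 2570.3 in shARNT, and 3562, 4081 and 4268 in shBMAL1. The control and shARNT libraries overlapped, and each shBMAL1 library was above all 6 others. For shBMAL1, separation in this direction held for 22.3% of genes tested against shControl and 22.5% against shARNT. CYR61 rose 1.64-fold under shBMAL1, a log2 fold change of 0.71 (SE 0.09, DESeq2 adjusted p 2.11e-14). Under shARNT the value was 0.03 with a 95% interval from -0.11 to 0.18 (DESeq2 adjusted p 0.794). The direct difference was 0.68 (SE 0.08, DESeq2 adjusted p 6.37e-16), so the knockdowns differed in CYR61. Leaving out any library kept the value under shBMAL1 between 0.66 and 0.79. It was the only member that passed a minimum change of 1.5-fold.

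CTGF, the closest relative of CYR61 among the 8 genes (chromosome 6, 132269316 to 132272512, minus strand), was expressed at a lower level. It had 259.6, 232 and 246 counts in shControl, 309, 266 and 263 in shARNT, and 286, 314 and 369 in shBMAL1. Both knockdown groups lay above the control libraries without overlap, and they overlapped each other. Such separation from the control libraries was seen for 20.9% of genes tested under shARNT and 22.3% under shBMAL1. Under shARNT the closest libraries stood at 263 (shARNT) and 259.6 counts (shControl). CTGF rose 1.31-fold under shBMAL1 (log2 fold change 0.39, SE 0.15, DESeq2 adjusted p 0.0273). The value under shARNT was 0.19 and was not called (95% interval -0.09 to 0.47, DESeq2 adjusted p 0.346), and the direct difference was 0.21 (-0.08 to 0.50, DESeq2 adjusted p 0.306). A difference in CTGF between the knockdowns was thus not shown. The call under shBMAL1 was lost without shBMAL1 replicate 3, the highest library, with a value of 0.29 (DESeq2 adjusted p 0.211), and without control replicate 2, the lowest, with 0.35 (0.118). LINC01013, annotated antisense to CTGF over 278 exonic bases, was at 0 in each of the 9 libraries, a zero that allows up to 3 counts per library.

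ANKRD1 (chromosome 10, 92671853 to 92680844, minus strand) had the fewest reads of the 8 genes, without regard to length, and the highest SD relative to its mean in each group. It had 115, 122 and 174 counts in shControl, 185, 137 and 154 in shARNT, and 151, 207 and 202 in shBMAL1. The groups overlapped because control replicate 3 was high and shBMAL1 replicate 1 was low, and the SD within shControl was 23.6% of the mean. The log2 fold change under shBMAL1 was 0.44 (SE 0.21, DESeq2 adjusted p 0.0894), a 1.36-fold rise just inside the threshold. This call was lost without control replicate 1 (0.33, DESeq2 adjusted p 0.327) or 2 (0.37, 0.267) and without shBMAL1 replicate 2 (0.37, 0.302) or 3 (0.38, 0.267). With the replicate number as a block it was also not called (0.45, DESeq2 adjusted p 0.143). Without control replicate 3 the value was 0.65 (DESeq2 adjusted p 0.0218). Under shARNT it was 0.22 (95% interval -0.19 to 0.62, DESeq2 adjusted p 0.488).

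**Figure D2:**
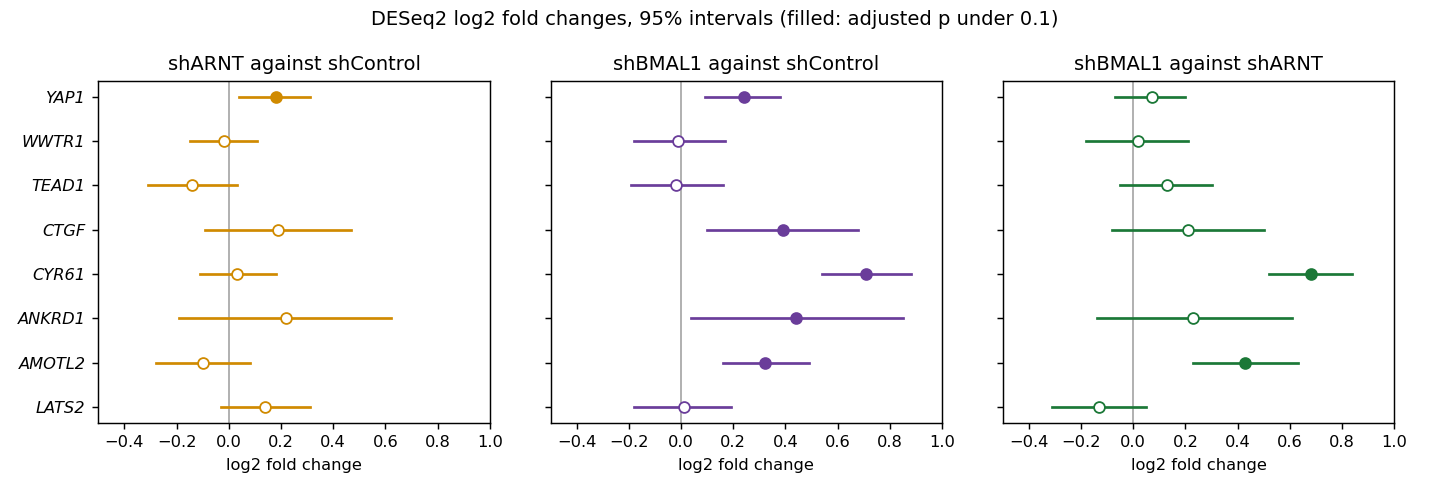
Log2 fold changes (horizontal axis) of the 8 genes in the 3 comparisons, with 95% intervals and filled points for a DESeq2 adjusted p under 0.1. CYR61 stands at 0.71 under shBMAL1 and 0.03 under shARNT, and the intervals of WWTR1 and TEAD1 include 0 in all 3 panels.

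The inhibitors that are also targets are given last. AMOTL2 (chromosome 3, 134074189 to 134094321, minus strand) had 1216, 1271 and 1279 counts in shControl, 1319, 1022 and 1161 in shARNT, and 1532, 1481 and 1709 in shBMAL1. The shBMAL1 libraries were above all others, and the shARNT libraries spread on both sides of the control libraries. Among genes tested, 22.3% had all shBMAL1 libraries above all control libraries and 22.5% above all shARNT libraries. AMOTL2 rose 1.25-fold under shBMAL1 (log2 fold change 0.32, SE 0.09, DESeq2 adjusted p 0.000804). Under shARNT the value was -0.10 (95% interval -0.28 to 0.08, DESeq2 adjusted p 0.448). The direct difference was 0.43 (SE 0.10, DESeq2 adjusted p 0.000143), so AMOTL2, like CYR61, was higher in shBMAL1 than in shARNT. The call under shBMAL1 held in all 6 fits that left out a library, with values from 0.26 to 0.37. An exonic stretch of 187 bases in AMOTL2 is annotated as the processed pseudogene RPL39P5, so reads in that stretch are of uncertain origin.

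LATS2 (chromosome 13, 21547175 to 21635725, minus strand) had 744, 781 and 778 counts in shControl, 842, 838 and 853 in shARNT, and 767, 748 and 804 in shBMAL1. The shARNT libraries were above both other groups without overlap, and the control and shBMAL1 libraries overlapped. All shARNT above all control libraries held for 20.9% of genes tested, and all shBMAL1 below all shARNT libraries for 22.2%. The log2 fold change under shARNT was 0.14 and not called (95% interval -0.03 to 0.31, DESeq2 adjusted p 0.218). When libraries were adjusted for GC content, an alternative added with the data in view, the value was 0.19 with a DESeq2 adjusted p of 0.062. Under shBMAL1 the value was 0.01 (-0.18 to 0.19, DESeq2 adjusted p 0.965), and the direct difference was -0.13 (-0.31 to 0.05, DESeq2 adjusted p 0.314). The 3 LATS2 values in shARNT had an SD of 7.8 counts, 0.924% of their mean.

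**Figure D3:**
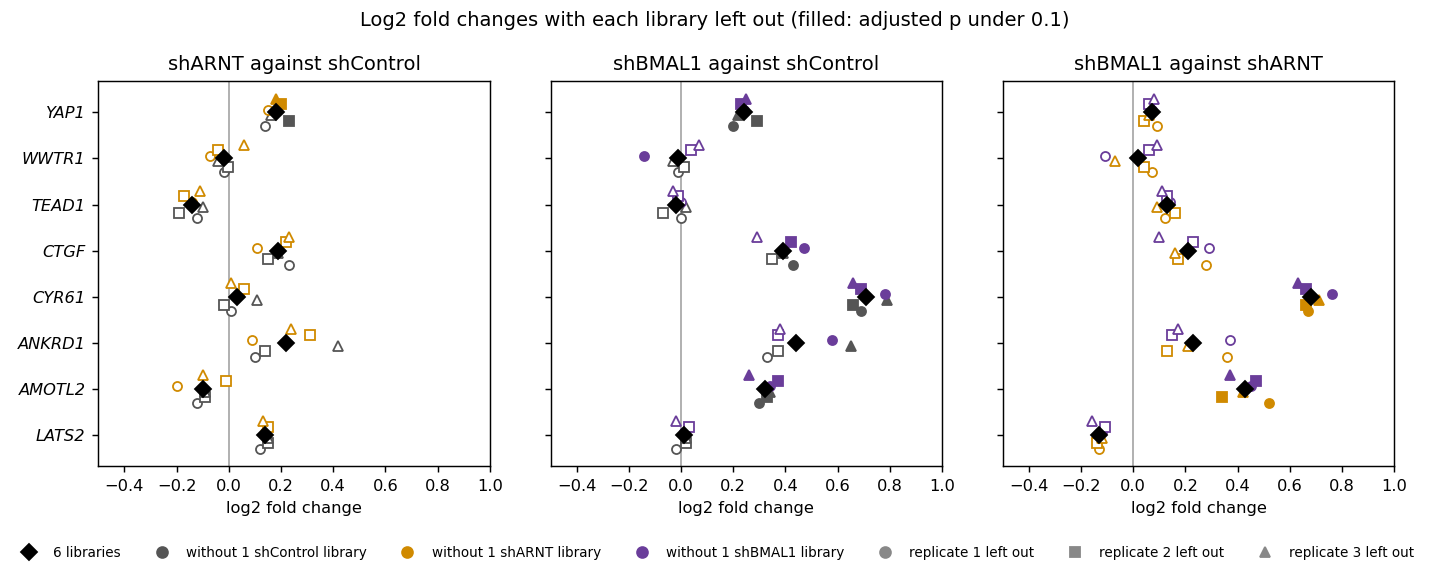
Log2 fold changes (horizontal axis) of the 8 genes in the fit of all 6 libraries (black diamonds) and with each library left out in turn, coloured by the group and shaped by the replicate left out, and filled for a DESeq2 adjusted p under 0.1. CYR61 stays between 0.66 and 0.79 and AMOTL2 between 0.26 and 0.37 under shBMAL1, while ANKRD1 runs from 0.33 to 0.65.

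Within the shBMAL1 group the members did not share one order of libraries. Replicate 3 was the highest for CTGF, CYR61, AMOTL2, TEAD1 and LATS2, and replicate 2 for YAP1 and ANKRD1. WWTR1 was highest in replicate 1, the library in which CYR61, CTGF and ANKRD1 were lowest. In the shARNT group, replicate 1 was the highest for YAP1, WWTR1, CTGF, ANKRD1 and AMOTL2.

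Levels were compared between genes as normalised read counts per kb of exonic length. In shControl, CYR61 was at 655 ± 62 and WWTR1 at 622 ± 13.9 counts per kb (SD, n = 3), and their libraries overlapped, so the order of the first 2 was not resolved. YAP1 followed at 331 ± 19.9, AMOTL2 at 194 ± 5.22, LATS2 at 137 ± 3.71 and CTGF at 105 ± 5.92. TEAD1 at 92 ± 5.98 and ANKRD1 at 76.4 ± 18 overlapped each other. With shBMAL1, CYR61 stood at 1074 ± 98.9 counts per kb and WWTR1 at 620.4 ± 95.4. CTGF, at 138 ± 18.1, then stood beside LATS2 at 138 ± 5.09. Dividing by the longest transcript in place of all exons put WWTR1, at 1032 ± 23, above CYR61, at 786 ± 74.5, in shControl. It also put TEAD1, at 104 ± 6.8, beside CTGF, at 105 ± 5.92, so their order depended on the length used.

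The genes whose profiles over the 9 libraries lay nearest to each member were found by the root-mean-square (RMS) difference of log2(normalised count + 1) after centring each gene. The nearest to CYR61 were LRTOMT (RMS difference 0.073) and STK17A (0.089), and the nearest to AMOTL2 were TBC1D3L (0.041) and PLA2G12A (0.057). SENP2 (0.058) and ZNF292 (0.069) were nearest to CTGF, and CRIPT (0.105) and ANKRD26 (0.130) to ANKRD1. For YAP1 they were XPC and ITFG2 (both 0.038), for WWTR1 PCBD1 (0.058) and PSEN2 (0.061), for TEAD1 HAUS5 (0.040) and ZFYVE16 (0.044), and for LATS2 GUCD1 (0.031) and CCT2 (0.039). No member was among the 2 nearest genes of another member. The measure describes likeness over these libraries, which include 3 groups, and the flat members match other flat genes.

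Other genes of the pathway were examined by lists written with earlier results of these data known. Of the other TEAD factors and cofactors, 3 of 7 were tested under shARNT with none called, and 4 of 7 under shBMAL1, where TEAD3 fell by 0.41 on the log2 scale (DESeq2 adjusted p 0.00783), beside 35.4% and 36.8% of all genes called. With so few genes tested, nothing particular to the list is read from these counts. TEAD4 (1174 counts in shControl) and the competing cofactor VGLL4 (989) were called in neither. The cofactor genes VGLL1, VGLL2 and VGLL3 were at 0 throughout, with the same limit of 3 counts per library.

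All 21 Hippo kinases and scaffolds were tested, and 6 were lower and 2 higher under shARNT and 8 lower and 3 higher under shBMAL1, beside 35.4% and 36.8% of all genes called in either direction. Nothing particular to the Hippo genes, or to the lists that follow, is read from such counts. Under shARNT the LIM protein gene LIMD1 (-0.54) and the FERM protein gene FRMD6 (-0.50) fell most, and NF2, which encodes merlin (0.34), and STK3, which encodes the kinase MST2 (0.17, DESeq2 adjusted p 0.0792), rose. Under shBMAL1 the kinase genes TAOK3 (-0.93) and MAP4K4 (-0.53) fell most, and WWC2 (0.58) and the protocadherin gene FAT4 (0.22, DESeq2 adjusted p 0.0687) rose. LATS1, the relative of LATS2, was lower under shBMAL1 (-0.24, DESeq2 adjusted p 0.0185) and was not called under shARNT (-0.02). LIMD1 and FRMD6 were also lower under shBMAL1 (-0.38 and -0.35). The calls of STK3 and FAT4 were each lost in several fits that left out a library, with DESeq2 adjusted p values of up to 0.295 and 0.328. With the replicate number as a block neither was called (DESeq2 adjusted p 0.192 and 0.107), and STK3 was also not called with TMM size factors (0.108) or the GC adjustment (0.186).

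Further reported targets of YAP and TAZ moved in both directions. Of 17 listed genes 16 were tested, and 9 were lower and 2 higher under shARNT and 9 lower and 6 higher under shBMAL1, where 19.0% and 19.4% of all genes were lower and 16.5% and 17.4% higher. The median log2 fold change was -0.26 under shARNT and -0.21 under shBMAL1, beside 0.003 and 0.02 over all genes. Tissue factor (F3), which HIF also activates, fell most under shARNT (-2.02), followed by the Arf GAP gene ASAP1 (-0.80), while CRIM1 (0.39) and TGFB2 (0.19, DESeq2 adjusted p 0.0381) rose. Under shBMAL1, F3 (-1.53) and NT5E, which encodes CD73 (-1.25), fell most, and IGFBP3 (0.78) and the kinase gene NUAK2 (0.58, DESeq2 adjusted p 0.000955) rose most. The rise of TGFB2 under shARNT was lost without control replicate 1, control replicate 2 or shARNT replicate 3, with DESeq2 adjusted p values of 0.178, 0.179 and 0.204. AXL, a receptor tyrosine kinase gene in the same list, was lower in both knockdowns (-0.65 and -0.43). In the direct comparison 8 of the 16 were higher and 3 lower in shBMAL1, beside 17.8% and 18.6% of all genes.

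Among relatives of the readout genes, NOV (CCN3), of the same family as CTGF and CYR61, rose from 86.1 counts in shControl to 259.9 in shARNT (log2 fold change 1.60, DESeq2 adjusted p 4.44e-16). In shBMAL1 libraries NOV averaged 71.5 counts (-0.27, DESeq2 adjusted p 0.494), and the knockdowns differed (-1.86, DESeq2 adjusted p 1.8e-20). The other 5 relatives were below 50 counts on average in every group, and of these WISP2 (0 counts in shControl and 7.28 in shBMAL1) and ANKRD2 (1.01 and 10.3) were called higher under shBMAL1.

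**Figure D4:**
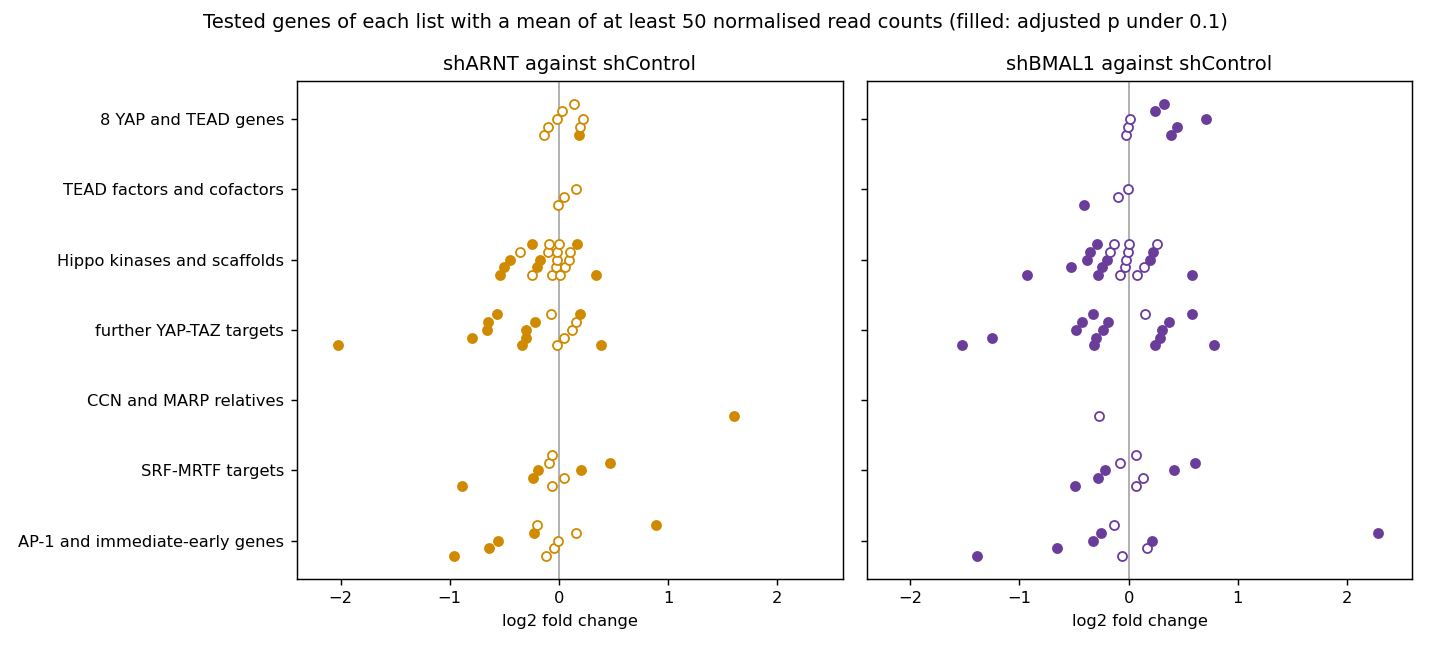
Log2 fold changes (horizontal axis) under shARNT (left) and shBMAL1 (right) of the tested genes that averaged 50 or more normalised read counts, with each list in its own row and filled for a DESeq2 adjusted p under 0.1. Under shBMAL1 the filled points of the 8 genes all lie to the right of 0, whereas those of the further YAP and TAZ targets lie on both sides, from -1.53 to 0.78.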

How the data were processed

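Estimated counts deposited by the authors (total reads per gene, linear scale) were used for 9 libraries. Per the methods of the study, SeqMan NGen placed the reads on GRCh37 and ArrayStar gave the counts. The submitters' processing notes also name STAR, DESeq2 and hg38. The kit was stranded, but the annotation and strand setting of the counting are not given in the sources used here, so overlapping genes are uncertain. The value 0.009, which stood in for 0 in 46.3% of cells, was set to 0, values were rounded, and 53 rows that shared a name were added to the row of that name. Libraries of 1 group differed beyond sampling noise (chi-square per degree of freedom 7.18 to 16.4), so none was a copy.

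Each comparison was fitted on its 6 libraries and all genes in DESeq2 1.42.0 (median-of-ratios size factors, Wald test, Benjamini-Hochberg, adjusted p under 0.1), run in R 4.3.3. Tests were two-sided and were tested on simulated data. Normalised read counts used size factors over all 9 libraries. Genes, coordinates and lengths came from GENCODE v44 lifted to GRCh37, and promoters from RefSeq on GRCh38.p14, with no conversion between builds. Alternatives were edgeR 4.0.16, TMM size factors, a filter of 10 counts in 3 libraries, an adjusted p under 0.05, a 1.5-fold minimum, 1 fit of 9 libraries, a replicate block, each library left out in turn, the longest transcript as the length, and a GC correction added after the data were seen. The 8 genes, the lists and the alternatives were chosen with earlier results of these data known. Named genes were the 8 members, ARNT and ARNTL, the 2 most lowered and 2 most raised called genes of each list in each knockdown with a mean of at least 50 counts, and the 2 genes nearest to each member among those averaging 100 counts or more. Genes named beyond this rule (LATS1, TEAD4, VGLL1 to VGLL4, AXL, WISP2 and ANKRD2) were chosen after their values were seen.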

Additional observations from a re-analysis of the deposited data

Results flagged for a closer look

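Of the 8 genes, 2 responded differently to the knockdowns by the direct test of shBMAL1 against shARNT, in which 36.3% of all genes tested were called, so the number of members called is not a result about the 8 genes. CYR61 was higher in shBMAL1 by 0.68 on the log2 scale (SE 0.08, DESeq2 adjusted p 6.37e-16), and AMOTL2 by 0.43 (SE 0.10, DESeq2 adjusted p 0.000143). In both, all 3 shBMAL1 libraries were above all 3 shARNT libraries, which held for 22.5% of all genes tested. Both calls held in each of the 6 fits that left out a library, with 0.63 to 0.76 for CYR61 and 0.34 to 0.52 for AMOTL2. Single libraries within the groups of 3 were not tested as outliers by Dixon's criterion.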

How the results depend on the processing

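The number of the 8 genes called under shARNT (1) was 2 with the GC correction, 0 with a 1.5-fold minimum and 0 to 1 with a library left out. Under shBMAL1 it was 5, and 1 with a 1.5-fold minimum and 3 to 6 with a library left out (the sixth, without shBMAL1 replicate 1, was WWTR1 called lower at -0.14), and in the direct comparison 2, and 1 with a 1.5-fold minimum. That minimum also left 1200, 2606 and 2058 of all genes called in the 3 comparisons (from 5376, 7005 and 6438) and 9, 10 and 11 of the 73 listed pathway genes (from 30, 40 and 34). Counts under the other alternatives stayed within 1.5 times. No call of a member changed sign. Deviations of same-numbered libraries correlated with r from -0.154 to 0.105, and those of differently numbered libraries with r from -0.266 to 0.235. The deviations were centred within groups of 3, so these values cannot decide whether same-numbered libraries were prepared together. When replicate number entered as a block, 1, 4 and 2 members were called, and ANKRD1 under shBMAL1 was not (DESeq2 adjusted p 0.143), nor did every library correlate best with its own number. Dividing by the longest transcript moved the levels per kb in shControl to 786 for CYR61, 1032 for WWTR1, 387 for YAP1, 258 for AMOTL2 and 104 for TEAD1. Scaling by TMM moved the median log2 fold change of all genes by less than 0.1.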

Other observations

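Genes of neighbouring programmes that also act on CTGF and CYR61 were counted. Among 10 AP-1 and immediate-early genes, all tested, 4 were lower and 1 higher under shARNT and 4 lower and 2 higher under shBMAL1, beside 35.4% and 36.8% of all genes called in either direction. FOSL1 fell in both knockdowns (-0.96 and -1.39), from 11869 counts in shControl to 6071 in shARNT and 4547 in shBMAL1, and JUN fell in both as well (-0.64 and -0.66). EGR1 rose under shBMAL1 from 230.3 to 1121 counts (log2 fold change 2.28, DESeq2 adjusted p 7.27e-76) and was not called under shARNT (0.16, DESeq2 adjusted p 0.477), with a direct difference of 2.12 (DESeq2 adjusted p 4.61e-60). FOSB rose under shARNT (0.89, DESeq2 adjusted p 0.00972), a call lost without control replicate 1 (0.103) or shARNT replicate 2, and JUNB was called higher under shBMAL1 (0.21, DESeq2 adjusted p 0.0949) but in none of the fits without control replicate 1 or 2 or any shBMAL1 library, nor with TMM size factors (DESeq2 adjusted p 0.102) or the replicate block (0.115).

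Of 12 targets of SRF and its MRTF cofactors, 10 were tested under shARNT with 3 lower and 2 higher, and 12 under shBMAL1 with 3 lower and 2 higher, beside the same 35.4% and 36.8% of all genes. The tropomyosin gene TPM1 fell under shARNT (-0.89) and was not called under shBMAL1 (0.07), with a direct difference of 0.97 (DESeq2 adjusted p 9.34e-44). Filamin A (FLNA) fell in both (-0.24 and -0.49), and the myosin light chain gene MYL9 rose in both (0.47 and 0.42). The smooth muscle actin gene ACTA2 rose under shBMAL1 (0.61, DESeq2 adjusted p 5.73e-06), where vinculin (VCL) fell (-0.28). FHL2 rose under shARNT (0.20, DESeq2 adjusted p 0.0378), and this call was lost without control replicate 1 (0.17, DESeq2 adjusted p 0.161), without shARNT replicate 1, where the value was 0.08 (0.389), and with the replicate number as a block (0.19, DESeq2 adjusted p 0.387).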
